A study of Mus musculus with 2 samples.

Results

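The mitochondrial carriers, porins and pyruvate carrier are the membrane proteins that move metabolites in and out of mitochondria. Members were taken by gene symbol from the protein-coding genes of GENCODE M21: every Slc25a gene with a number, Vdac1, Vdac2 and Vdac3, and Mpc1 and Mpc2. Of 52 annotated genes with such a symbol, 46 had at least 1 read in either library, among 18907 annotated genes with a read. They were 41 Slc25 carriers, 3 porins and 2 pyruvate carrier genes, and the remaining 6 (Slc25a2, Slc25a31, Slc25a41, Slc25a43, Slc25a48 and Slc25a54) had none.

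Porins (Vdac genes) form the channels of the outer mitochondrial membrane. The inner membrane lets little through unaided, and most of its transport of nucleotides, phosphate, amino acids, organic acids and cofactors is done by the Slc25 family, whose proteins exchange or co-transport their substrates. Mpc1 and Mpc2 belong to another family and pair into a single complex that brings pyruvate into the matrix. In brain these proteins link glycolysis, the malate-aspartate shuttle, glutamate metabolism and the export of ATP.

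The RNA came from the left side of the cerebral cortex in adult B6NCrl mice (C57BL/6 in the samples' description) aged 6 months, with no treatment or engineered allele given, and was sequenced as long reads, each of which can span a whole transcript. The labels gave 1 group of 2 biological replicates with a single donor record, and described the tissue as male in 1 field and the sex as not collected in another. No condition was compared: each comparison below sets library 2 against library 1, and a p-value says only whether the 2 libraries differ beyond counting error, which may be technical. Levels are read counts scaled to a library total of 1000000 (CPM), with SD over n = 2 libraries unless stated.

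Replicate 2 held 1304133 reads and replicate 1 held 1306424, so 1 read was worth 0.767 CPM in replicate 2 against 0.765 CPM in replicate 1, and a count of 0 allowed up to 2.30 CPM. All 31 fixed markers of 6 cortical cell types were found in both libraries. The libraries were not alike throughout: the mitochondrial genome gave 5.42% of reads in replicate 2 against 4.05% in replicate 1, and 1-exon models 24.9% against 19.6% of the reads on annotated genes. Intervals and limits cover counting error only.

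In 4 members the coding bases behind a splice choice, or near a departure from the annotation, are shown here from the GENCODE M21 transcripts on mm10. Other members, such as Slc25a22, also had splice choices, and their bases are not shown. Slc25a3, the carrier that brings phosphate into the matrix, has a pair of mutually exclusive coding exons, of which exon A is known from heart and skeletal muscle and exon B from most tissues. Capitals mark the 77 bases, of 122 aligned, that both exons share (63.1% identity). Exon A lies at chr10:91122207-91122331 and exon B at chr10:91121922-91122043, on the minus strand.
Slc25a3 exon A: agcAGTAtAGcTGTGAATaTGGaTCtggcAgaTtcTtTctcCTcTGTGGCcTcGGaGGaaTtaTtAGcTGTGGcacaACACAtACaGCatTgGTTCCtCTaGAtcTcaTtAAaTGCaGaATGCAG
Slc25a3 exon B: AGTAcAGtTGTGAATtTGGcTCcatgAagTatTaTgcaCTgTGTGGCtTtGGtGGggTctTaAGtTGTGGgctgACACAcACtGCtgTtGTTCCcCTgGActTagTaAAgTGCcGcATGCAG

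In Vdac3, an outer membrane porin gene on the minus strand of chromosome 8, a coding exon has 2 annotated versions of 53 and 50 bases. Each is shown with the first 30 bases of the next exon (chr8:22583707-22587602, with the intron left out), and capitals mark the 3 bases in which they differ.
Vdac3 exon of 53 bases: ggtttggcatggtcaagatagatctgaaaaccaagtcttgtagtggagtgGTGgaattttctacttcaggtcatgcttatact
Vdac3 exon of 50 bases: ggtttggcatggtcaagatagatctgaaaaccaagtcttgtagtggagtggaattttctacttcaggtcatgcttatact

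Mpc1, a pyruvate carrier gene on the plus strand of chromosome 17, has an annotated coding exon of 4 bases (chr17:8293415-8293418). It is in capitals here, between the last 30 bases of the exon before and the first 30 bases of the exon after it.
Mpc1 with the 4-base exon: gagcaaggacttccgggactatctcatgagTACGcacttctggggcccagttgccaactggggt

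Slc25a14, a carrier related to the uncoupling proteins, has 2 annotated ends of 1 coding exon (plus strand, chrX:48624168-48629281 with the intron left out), and the 9 bases held by the longer version are in capitals.
Slc25a14 shorter exon: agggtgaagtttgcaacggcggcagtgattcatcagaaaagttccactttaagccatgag
Slc25a14 longer exon: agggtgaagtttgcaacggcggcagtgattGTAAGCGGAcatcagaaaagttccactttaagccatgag

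Summed over members, the level was 7741 ± 234 CPM, which is 0.758% of all reads in replicate 2 and 0.791% in replicate 1. A few genes supplied most of them. The ADP/ATP carriers held 39.96% of the members' reads in replicate 2 and 39.67% in replicate 1, the porins 19.2% and 18.0%, the phosphate carrier 14.9% and 16.1%, and the pyruvate carrier 10.1% and 8.50%. All other members shared the rest.

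Slc25a4, the ADP/ATP exchanger (ANT1) that passes ATP out of the matrix, was the most abundant member. It had 2505 CPM in replicate 2 and 2599 CPM in replicate 1, a mean of 2552 ± 66.7 CPM. Its paralog Slc25a5 (ANT2) had 522 CPM in replicate 2 and 537 CPM in replicate 1, a mean of 529 ± 10.2 CPM. Slc25a4 therefore held 82.8% of the ADP/ATP carrier reads in replicate 2 and 82.9% in replicate 1, with 95% intervals (Clopper-Pearson) of 81.5% to 83.9% and 81.7% to 84.0%, while the third gene of the set, Slc25a31, known from testis, had 0 reads. These intervals do not cover the choice of processing. With spliced models only, the mean levels of Slc25a4 and Slc25a5 were 2474 and 305 CPM. They were 2386 and 291 CPM with known transcripts only, and 1748 and 770 per kilobase of model length.

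The coding sequences of Slc25a4 and Slc25a5 were 77.4% identical over 894 bases. The first 90 coding bases show where the paralogs differ, with the 24 differing bases in capitals. They lie at chr8:46210833-46210922 on the minus strand and at chrX:36795731-36795820 on the plus strand.
Slc25a4: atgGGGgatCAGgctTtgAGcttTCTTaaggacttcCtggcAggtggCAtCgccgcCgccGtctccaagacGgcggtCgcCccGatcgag
Slc25a5: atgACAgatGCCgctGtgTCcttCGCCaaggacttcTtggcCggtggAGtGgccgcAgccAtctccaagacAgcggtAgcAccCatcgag

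The phosphate carrier gene Slc25a3 had 1132 CPM in replicate 2 and 1272 CPM in replicate 1, a mean of 1202 ± 99.3 CPM. Its difference passed the exact two-sided binomial test over all genes (adjusted p = 0.012, Benjamini and Hochberg) but was small, a log2 ratio of -0.17, and so fell short of the 2-fold size that a call required. Among the porins, Vdac1 had 720.02 CPM in replicate 2 and 719.5 CPM in replicate 1. Vdac2 had 389 and 396 CPM, and Vdac3 had 343 and 308 CPM. Vdac1 supplied 49.6% of the porin reads in replicate 2 and 50.5% in replicate 1, Vdac2 26.8% and 27.8%, and Vdac3 23.6% and 21.7%, and the interval of Vdac1 lay above those of the others in each library.

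Mpc1 and Mpc2, whose products pair in the pyruvate carrier, had similar levels when counted without near copies. Mpc1 had 394 CPM in replicate 2 against 333 CPM in replicate 1, and Mpc2 had 371 and 339 CPM. Mpc1 held 51.5% of the reads of the pair in replicate 2 (48.4% to 54.6%) and 49.5% in replicate 1 (46.2% to 52.9%), so that an equal share lay within both intervals when Mpc1-ps was left out. Part of the Mpc1 sequence has a near copy: the processed pseudogene Mpc1-ps on chromosome 12, identical to an Mpc1 transcript over 256 bases, had 2 reads in replicate 2 and 135 in replicate 1. With those reads added to Mpc1, its log2 ratio (replicate 2 over replicate 1) changed sign, to -0.14 against 0.24 without them, and neither was a called difference. The Mpc1 share of the pair was then 51.6% in replicate 2 (48.5% to 54.7%) and 56.3% in replicate 1 (53.1% to 59.4%), and in replicate 1 an equal share lay outside the interval.

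In the order of mean CPM, Vdac2, Mpc1, Mpc2 and Vdac3 followed each other, and the ranges of each neighbouring pair overlapped, while those of Vdac2 and Vdac3 did not. A read stands for 1 transcript, so CPM was not divided by length. Per kilobase of the mean model length and scaled to 1000000 over all genes, the order began with Slc25a4 (1748 ± 81.0), Slc25a3 (989 ± 106), Slc25a5 (770 ± 49.5) and Vdac1 (493 ± 8.27). Model lengths were not stable enough to carry this scale to every member. The leading Mpc1 model was 1808 bases long in replicate 2 and 954 bases in replicate 1 for 1 set of introns. Of the 24 Slc25a23 reads in replicate 2, 22 were on a model of 1 base.

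**Figure D1:**
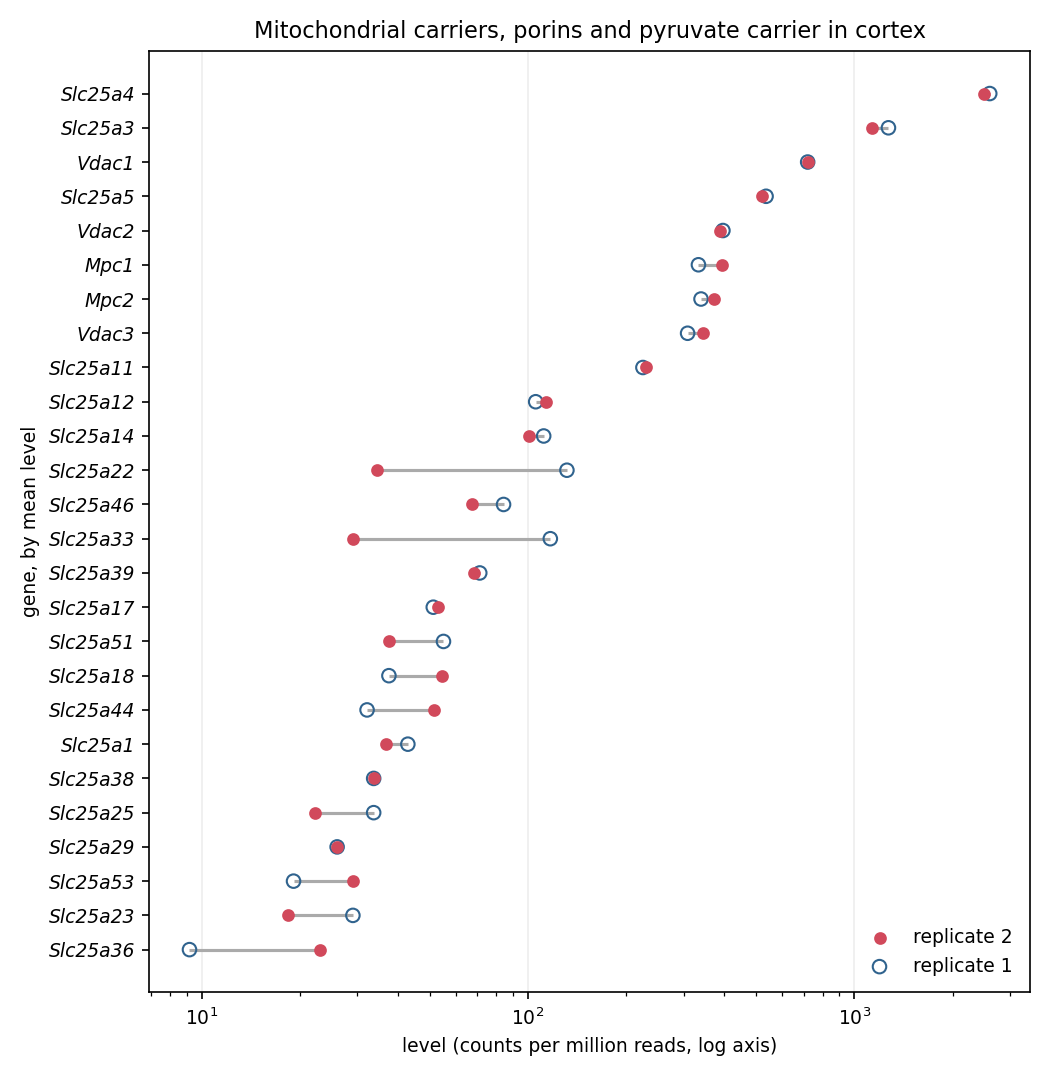
Level of members of at least 20 CPM, and of Slc25a36, in replicate 2 (filled) and replicate 1 (open), in CPM on a log axis; grey lines join the libraries. The libraries nearly coincide for the most abundant genes, while Slc25a22, Slc25a33 and Slc25a36 lie farthest apart.

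**Figure D2:**
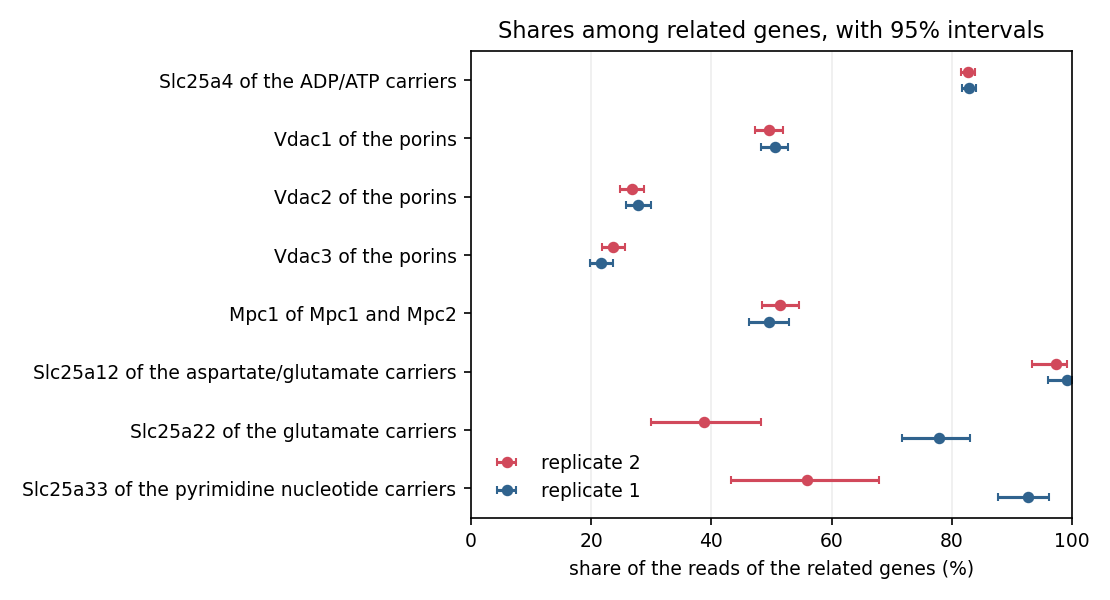
Share of 1 gene in the reads of its set of related genes, in percent, with 95% Clopper-Pearson intervals, in replicate 2 (red) and replicate 1 (blue). The intervals of the libraries overlap for the ADP/ATP carriers, the porins, the pyruvate carrier and the aspartate/glutamate carriers, and do not overlap for Slc25a22 and Slc25a33.

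The carriers of the malate-aspartate shuttle, which brings the reducing power of cytosolic NADH into the matrix, came next. Slc25a11, the oxoglutarate/malate exchanger, had 231 CPM in replicate 2 and 225 CPM in replicate 1. Slc25a12 (aralar), the calcium-regulated aspartate/glutamate exchanger, had 113 and 106 CPM. Its paralog Slc25a13 (citrin), known as the form of liver, had 4 reads in replicate 2 and 1 read in replicate 1, so Slc25a12 held 97.4% (93.4% to 99.3%) and 99.3% (96.1% to 99.98%) of the reads of the pair; their coding sequences were 71.3% identical.

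The glutamate carriers did not keep a stable ratio. Slc25a22 had 34.5 CPM in replicate 2 and 132 CPM in replicate 1, whereas Slc25a18 had 54.4 and 37.5 CPM. Slc25a22 thus held 38.8% (29.9% to 48.3%) of the reads of the pair in replicate 2 and 77.8% (71.8% to 83.1%) in replicate 1, and which of the pair was higher differed between the libraries. The summed astrocyte markers were at 2367 CPM in replicate 2 against 2315 CPM in replicate 1 and the summed excitatory neuron markers at 826 and 1046 CPM. Inhibitory neuron markers were at 521 and 419 CPM, oligodendrocyte markers at 4378 and 4718, microglia markers at 455 and 428, and endothelial markers at 221 and 197. The part of cell types in the result was not tested. In bulk tissue, fewer cells of a type and less RNA per cell cannot be told apart.

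The remaining carriers of amino acids had lower mean levels than the glutamate carriers, though Slc25a44 was above Slc25a22 in replicate 2. Slc25a44, a carrier of branched-chain amino acids, had 51.4 CPM in replicate 2 and 32.1 CPM in replicate 1, Slc25a38, linked to glycine import, 33.74 and 33.68 CPM, and Slc25a29, a carrier of basic amino acids, 26.07 and 26.03 CPM. The 44 reads of Slc25a38 and the 34 reads of Slc25a29 were the same number in each library. Slc25a44 reads were partly unspliced, with 30 of 67 in replicate 2 on a genomic model (an unspliced model inside the gene) and 25 of 42 in replicate 1 on a 1-exon fragment. Slc25a15, the ornithine carrier of the urea cycle, had 10 reads in each library. Of the other organic acid carriers, Slc25a1, the citrate carrier, had 36.8 CPM in replicate 2 and 42.9 CPM in replicate 1, Slc25a10, the dicarboxylate carrier, 6.13 and 14.5 CPM, and Slc25a21, the oxoadipate carrier, 2 reads and 0 reads.

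The carriers of nucleotides and cofactors together had 304 CPM in replicate 2 against 416 CPM in replicate 1, and the gap was mostly Slc25a33. Slc25a33, a carrier of pyrimidine nucleotides, had 29.1 CPM in replicate 2 and 117 CPM in replicate 1, while its paralog Slc25a36 had 23.0 and 9.19 CPM. Slc25a33 held 55.9% (43.3% to 67.9%) of the reads of this pair in replicate 2 and 92.7% (87.6% to 96.2%) in replicate 1. Steadier members of the group were Slc25a39, needed for glutathione import, at 68.2 and 71.2 CPM, and Slc25a17, a carrier of the peroxisome rather than the mitochondrion, at 52.9 and 51.3 CPM. Slc25a51, the NAD+ carrier, had 37.6 CPM in replicate 2 and 55.1 CPM in replicate 1, a difference that did not pass (adjusted p = 0.203, exact binomial test).

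Among the proteins related to the uncoupling proteins, Slc25a14 had 100.4 CPM in replicate 2 against 112 CPM in replicate 1, and Slc25a27 had 23.8 and 14.5 CPM. Slc25a46, which sits in the outer membrane and acts in mitochondrial dynamics, had 67.5 and 84.2 CPM. The calcium-regulated ATP-Mg/phosphate carriers were led by Slc25a25, with 22.2 and 33.7 CPM, and Slc25a23, with 18.4 and 29.1 CPM. Genomic models held 91.7% of the Slc25a23 reads in replicate 2 and 63.2% in replicate 1, and without such models its mean level was 6.12 ± 6.49 CPM, against 23.7 ± 7.55 CPM with them, and that of the group 28.7 ± 13.5 CPM, against 53.2 ± 15.6 CPM. Slc25a53, a carrier of no established substrate, had 29.1 CPM in replicate 2 against 19.1 CPM in replicate 1, and its 10 and 8 reads on known transcripts were all on those annotated as processed transcripts without a coding sequence. The iron carriers Slc25a28 and Slc25a37 (mitoferrins) had 13 reads together in replicate 2 and 15 in replicate 1, and a gene that shares 382 identical bases with Slc25a37, Gm16867, had 35 and 34 reads.

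In all, 26 members reached 20 CPM in the mean, and 20 had reads below that level, at 0.767 to 19.2 CPM and 2 to 50 reads over both libraries. Of these 20, 12 had fewer than 10 reads in each library. Reads were found in both libraries for 45 of the 46 members, Slc25a21 being the exception.

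Between the libraries, 39 members had at least 10 reads in total and entered the exact two-sided binomial test with all 11838 such genes. A call needed an adjusted p under 0.05 and a 2-fold difference. Over all genes 7.05% were called, and of the members 3 of 39 (7.69%) were called, so the module lay near the background. Slc25a22 and Slc25a33 were lower in replicate 2 (2 of 39, or 5.13%, against 5.44% of all genes), and Slc25a36 was higher (1 of 39, or 2.56%, against 1.61%). The median log2 ratio, replicate 2 over replicate 1, was -0.03 over the 39 members and 0.0025 over all genes tested.

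Slc25a22 (mm10 chr7:141429744-141437892, minus strand) had 45 reads in replicate 2 and 172 in replicate 1, a log2 ratio of -1.92 (adjusted p = 7.9e-17, exact binomial test). Slc25a33 (chr4:149744036-149774277, minus strand) had 38 reads in replicate 2 and 153 in replicate 1, a log2 ratio of -1.99 (adjusted p = 1.0e-15, exact binomial test). Both were called under every one of the other settings tried. Their annotated transcripts held GC-rich stretches: the richest window of 100 bases had 79% GC in Slc25a22 and 83% in Slc25a33, against a median of 83% over the 643 genes called lower that had a sequence, 73% over the genes not called and 69% over those called higher. Slc25a36, called higher, had 79%. Slc25a16, Slc25a23, Slc25a28, Slc25a37 and Slc25a39 had windows of 83% or more and were not called in the main comparison. There the log2 ratio was -1.26 for Slc25a16 and -0.65 for Slc25a23, and both were called lower without genomic models. Slc25a39 was at -0.06, and Slc25a28 and Slc25a37 had only 13 and 15 reads in total. Slc25a1, Slc25a12, Slc25a15, Slc25a25, Slc25a46, Vdac1 and Vdac2 had windows of 79% to 82% and were not called either. Their log2 ratios lay between -0.59 (Slc25a25) and 0.10 (Slc25a12). The part of GC content in these differences was not tested.

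Slc25a36 (chr9:97074961-97111157, minus strand) had 30 reads in replicate 2 and 12 in replicate 1, a log2 ratio of 1.29 (adjusted p = 0.043, exact binomial test). This call rested on unspliced models: 24 reads in replicate 2 and 7 in replicate 1 were genomic, and without genomic models 6 and 5 reads remained (log2 ratio 0.24, adjusted p = 0.946). It was also lost with TMM factors, with DESeq2 size factors and with no count minimum (adjusted p between 0.060 and 0.068). Reads of models on the opposite strand over its exons moved the same way, with 26 in replicate 2 and 10 in replicate 1, and their part in the call was not tested.

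Most abundant members varied little. Of the 21 members with at least 100 reads in total, 18 (85.7%) differed by less than 1.5-fold between the libraries, as did 82.6% of the 4224 genes of that depth. The exceptions were Slc25a22 and Slc25a33, and Slc25a44, at a log2 ratio of 0.67 (adjusted p = 0.103, exact binomial test).

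**Figure D3:**
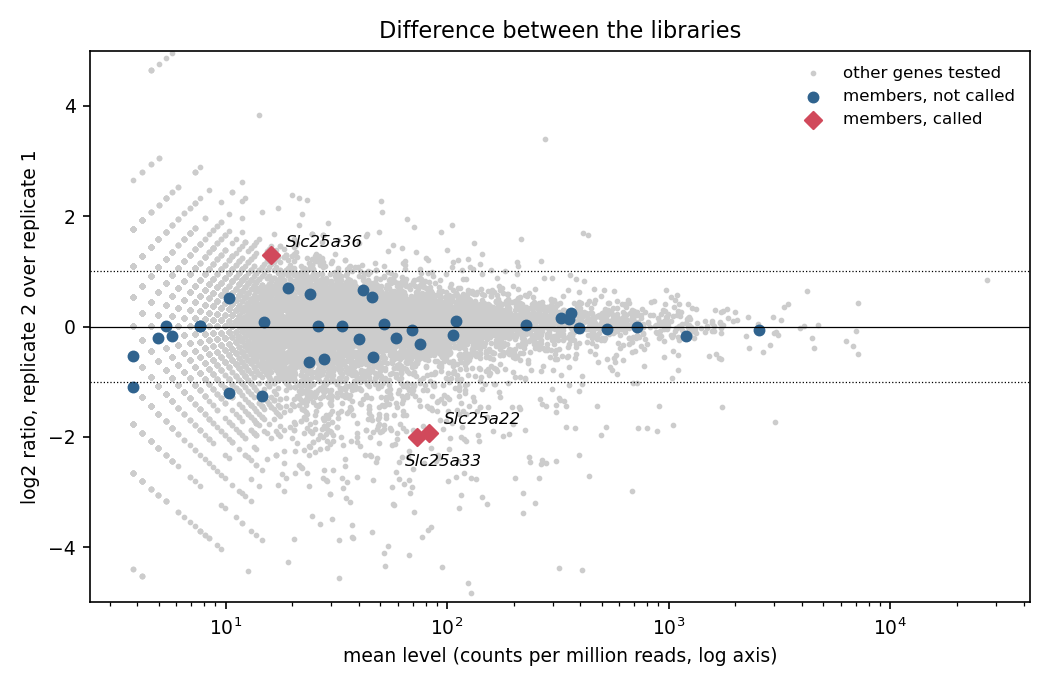
Log2 ratio of replicate 2 over replicate 1 against mean level in CPM (log axis) for all genes tested (grey; 20 genes lie outside the plotted range) and for members that were not called (blue) or called (red diamonds). Dotted lines mark a 2-fold difference. Members scatter like other genes of their level, and the 3 called members are named.

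A long read shows the whole chain of introns, so the models tell how complete and how regular the transcripts were. Reads on known transcripts made up 74.6% of the members' reads in replicate 2 and 78.9% in replicate 1, against 67.7% and 71.9% over all annotated genes. Genomic models held 2.57% and 1.73% of the members' reads, against 10.7% and 8.08% over all genes. Models that combine known splice sites in an unannotated way (NIC) held 5.89% and 5.35%, and models with an unannotated splice site (NNC) 5.59% and 5.15%, both above the 2.81% to 3.38% over all genes. Without Mpc1 and Vdac3 these shares were 1.13% and 1.48% for NIC and 2.12% and 2.09% for NNC.

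Of 28 members with at least 40 reads and a spliced model, 25 had a known transcript as their leading chain of introns. Slc25a4-201, of 4 exons, held 91.5% of the gene's reads in replicate 2 and 95.3% in replicate 1. Mpc2-201 held 94.4% and 91.0%, Slc25a39-201 85.4% and 91.4%, Vdac2-201 85.2% and 87.0%, Slc25a11-201 85.4% and 86.7%, Slc25a3-201 84.3% and 85.0%, and the leading Vdac1 transcript 78.0% and 82.8%. In each of these genes 1 fully spliced transcript held most reads. By contrast the leading chain held under 50% in the mean in 8 members.

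The exceptions among the abundant genes were of several kinds. Slc25a5 had 41.7% of its reads in replicate 2 (38.0% to 45.5%) and 42.9% in replicate 1 (39.2% to 46.7%) on 1-exon models within its last exon of 421 bases, beside 54.8% and 53.4% on the full chain Slc25a5-201. Slc25a12, whose leading transcript is 6351 bases long, had 37.2% of its reads in replicate 2 on incomplete chains. In Slc25a22 an unspliced transcript annotated as a retained intron, Slc25a22-221, had the highest share of known reads averaged over the libraries, with 17 of 35 in replicate 2 and 37 of 129 in replicate 1. Spliced Slc25a22 reads used alternative first exons: Slc25a22-201 had 7 reads in replicate 2 and 48 in replicate 1, and another coding transcript had 9 and 43.

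**Figure D4:**
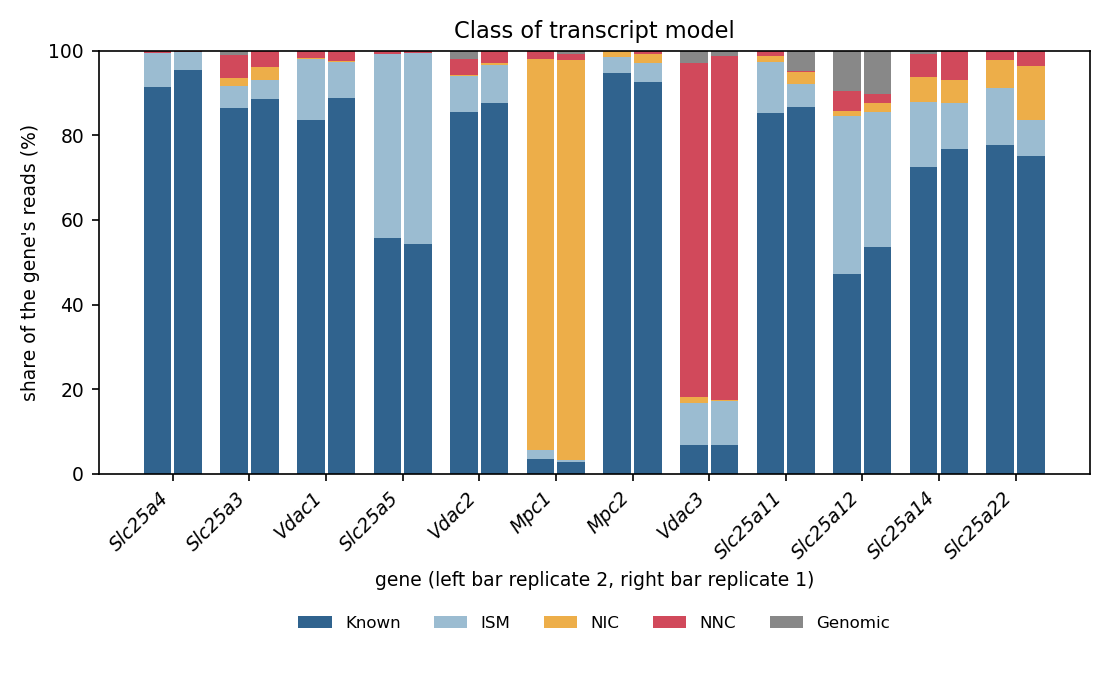
Share of each gene's reads by class of transcript model, in percent, for the 12 most abundant members (left bar replicate 2, right bar replicate 1). Known transcripts lead in most genes; in Mpc1 over 90% of reads are on NIC models (92.4% and 94.7%), in Vdac3 most are on NNC models (79.0% and 81.4%), and in Slc25a5 incomplete chains (ISM) are common.

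The leading isoform could be compared in 12 members with at least 20 known reads in each library and 2 or more known isoforms. None was called by Fisher's exact test (adjusted p under 0.05 over 2572 genes and a difference of at least 10 percentage points), against 1.17% of all genes; 2 of the 12 had an unadjusted p under 0.05. The largest difference was that of Slc25a22-221, at 48.6% in replicate 2 and 28.7% in replicate 1 (adjusted p = 0.633, Fisher's exact test). The leading isoform held over 90% of known reads in the mean in 10 of the 12, Slc25a22 and Slc25a14 being the exceptions. For Vdac3 this rests on 28 of 30 known reads in replicate 2 and 27 of 27 in replicate 1. Most of its reads were on an unannotated chain outside this comparison.

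Slc25a3 used exon B almost without exception. Of the reads that held exactly 1 of the exclusive exons, 1356 held exon B and 2 held exon A in replicate 2, and 1549 and 4 did in replicate 1. Exon B therefore had a share of 99.85% in replicate 2 (99.47% to 99.98%) and 99.74% in replicate 1 (99.34% to 99.93%), a mean of 99.80% ± 0.078, and the libraries did not differ beyond counting error (p = 0.691, two-sided Fisher's exact test). Exon A was at 0.15% in replicate 2 and 0.26% in replicate 1. Apart from these exons, a pair of introns near the 5′ end of the gene was outside the annotation: 1 had 43 reads in replicate 2 and 41 in replicate 1, and the other had 26 and 40.

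The Mpc1 models with reads did not hold the annotated exon of 4 bases shown above as an exon of its own. Models with this exon had 0 of 514 reads in replicate 2 and 0 of 435 in replicate 1, which by counting error alone allows a share of reads on such models of up to 0.584% and 0.690%. Instead 464 reads in replicate 2 (90.3%, 87.4% to 92.7%) and 398 in replicate 1 (91.5%, 88.5% to 93.9%) were on models that join the exons on either side directly, a mean of 90.9% ± 0.86. Another 9 and 5 reads joined them with the first exon 6 bases longer, and 7 and 10 with the next exon 8 bases longer. A further 14 and 13 held an annotated exon of 81 bases (chr17:8293415-8293495). It starts at the same base as the 4-base exon and so covers its bases. Another annotated exon of 4 bases, at chr17:8296527-8296530, had 0 including reads in each library. All annotated chains with a 4-base exon were without reads, so only 18 and 12 Mpc1 reads were classed as known. Since reads were not used here, whether those on the directly joining models hold the 4 bases was not tested.

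Most Vdac3 reads were likewise on models with a splice position outside the annotation. The exon shown above ended 4 bases beyond its shorter annotated version, as an exon of 54 bases, in 373 of 410 reads in replicate 2 (91.0%, 87.8% to 93.6%) and 347 of 376 in replicate 1 (92.3%, 89.1% to 94.8%). The annotated version of 50 bases had 35 reads (8.54%) and 28 reads (7.45%), and that of 53 bases had 0 reads in each. The chain with the 54-base exon was the leading one, with 335 reads in replicate 2 and 316 in replicate 1, against 28 and 27 for Vdac3-201. An alternatively spliced exon of a single codon has been described in mouse Vdac3; no exon of that length is in the annotation used, and whether these reads hold it was not tested.

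Slc25a14 used its alternative exon ends about equally. The shorter exon, of 236 bases, was in 52 of 119 reads in replicate 2 (43.7%, 34.6% to 53.1%) and 62 of 132 in replicate 1 (47.0%, 38.2% to 55.8%). The longer exon, of 245 bases, was in 51 (42.9%) and 58 (43.9%). As whole transcripts, that with the shorter exon (Slc25a14-201) had 43 reads in replicate 2 and 54 in replicate 1, and the matching one with the longer exon had 44 and 45.

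**Figure D5:**
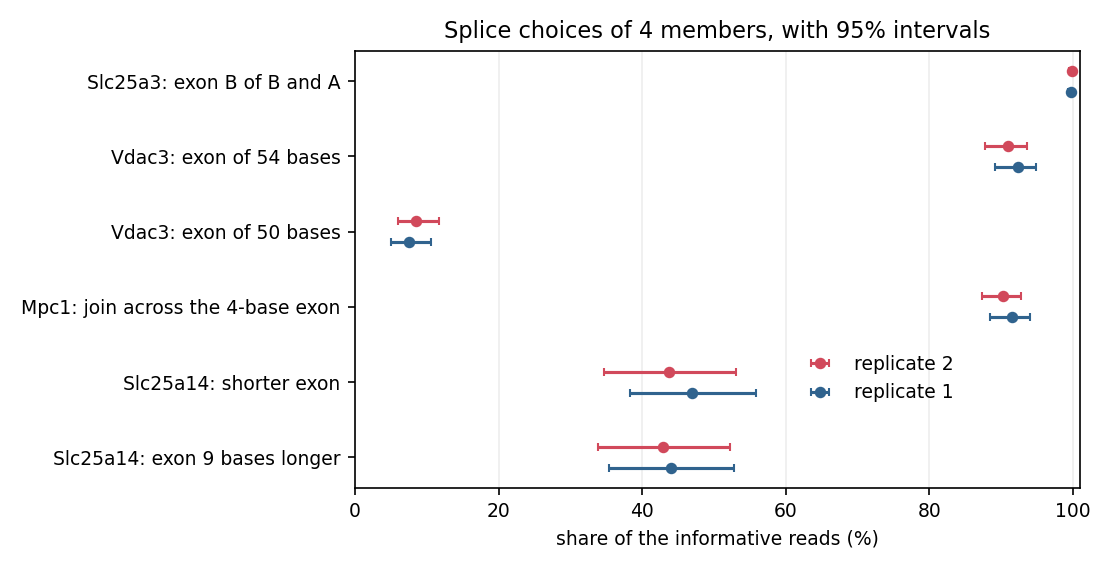
Share of reads with each splice choice in Slc25a3, Vdac3, Mpc1 and Slc25a14, in percent, with 95% Clopper-Pearson intervals, in replicate 2 (red) and replicate 1 (blue). Shares are of the informative reads, except for Mpc1, where they are of all reads of the gene. The intervals of the libraries overlap for each choice. Of the genes shown, Slc25a14 alone is near an even split.

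Over annotated internal exons, 149 exons of 22 members had at least 20 informative reads in each library. Of these 81 were never skipped, 7 were never included, and 61 had reads of both kinds. Mean inclusion was above 90% in 51 of the 61 and under 10% in the other 10 (in 5 genes), with 0 in between, whereas 995 of the 9457 exons tested over all genes were between 10% and 90%. Only reads with an intron across the whole exon counted as skipping, so a choice between ends of the same exon does not show here. The exon versions of 236 and 245 bases in Slc25a14 were thus among the 51, at means of 93.0% and 92.5%. By Fisher's exact test no member exon was called, against 0.116% of all exons, and 0 of 61 had an unadjusted p under 0.05. Exons of low inclusion were found, among others, in Slc25a14 (45 bases at 3.36% and 3.01%, and 48 bases at 5.88% and 3.76%, in replicates 2 and 1).

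The genes that work with these carriers were read from 7 fixed lists of 65 genes, of which 63 had a read and 57 were tested. Of the 57, 3 were lower in replicate 2 and 0 were higher, near the 5.44% and 1.61% of all genes called in these directions. The lower genes were Mtch1, an outer membrane relative of the carriers with 153 CPM in replicate 2 and 1209 CPM in replicate 1 (log2 ratio -2.98), Hk1, the hexokinase that docks on porin, with 34.5 and 121 CPM, and Pdk2, a kinase that switches off pyruvate dehydrogenase, with 23.0 and 65.8 CPM. The malate-aspartate and glycerophosphate shuttle enzymes had the highest summed level, 2899 ± 88.6 CPM, led by Mdh1 (1252 ± 85.5 CPM), Mdh2 (770 ± 18.3 CPM) and Got1 (539 ± 36.7 CPM), and 0 of 7 were called. Median log2 ratios of the lists lay between -0.45 (porin partners) and 0.12 (pyruvate dehydrogenase), against 0.0025 over all genes tested.

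In the pyruvate dehydrogenase list (851 ± 6.53 CPM), Pdha1 led at 241 ± 13.3 CPM, and 1 of 12 tested genes was called. The import list, whose products carry carriers and porins into their membranes, summed to 2810 ± 120 CPM with Tomm20 at 401 ± 51.4 CPM and Timm8b at 374 ± 51.9 CPM, and 0 of 18 were called. The calcium uniporter list summed to 931 ± 2.64 CPM, led by Smdt1 at 455 ± 14.1 CPM and Micu3 at 258 ± 39.9 CPM, with 0 of 6 called. Sideroflexins, led by Sfxn5 at 478 ± 6.01 CPM and Sfxn1 at 103 CPM, had 0 of 4 called. Of the porin partners, Ckmt1, the mitochondrial creatine kinase, had 229 CPM in replicate 2 and 423 CPM in replicate 1 (log2 ratio -0.88), under the 2-fold size of a call. Ucp2 had 8 and 9 reads, and Ucp1 0, while Mtch2 stood at 179 ± 4.11 CPM.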

How the data were processed

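The authors deposited, per library, a table of counts (whole reads per transcript model, not normalized) with other values (exon number and length per model), and an annotation with GENCODE M21 and TALON models on mm10, per the file headers; aligner, instrument and strand setting: not given in the sources used here. From these, gene counts were formed and scaled to CPM by library totals. Genes reaching 10 counts over both libraries were compared by an exact two-sided binomial test, adjusted by Benjamini and Hochberg's method and called at an adjusted p under 0.05 and a 2-fold difference, with 0.5 counts added to ratios. Isoforms (known reads) and exon inclusion (including over including plus skipping reads) needed 20 reads per library and were compared by Fisher's exact test, with a call at 10 percentage points. The tests were tried on simulated counts with counting error only, which cannot show how they behave under other differences between libraries. A limit for 0 is 3 counts. edgeR 4.0.16 and DESeq2 1.42.0 supplied only scaling factors, and SciPy 1.17.1 the tests. Near copies were searched with blastn 2.17.0 (97% identity, 200 bases). Over all genes, 22.8% had an unadjusted p under 0.05, so the libraries were kept as 2. By rule, the named genes are members of at least 20 CPM, members with a called level, isoform or exon, and the leading and called genes of the partner lists; other members named below that level were chosen after their values were seen. The members and lists were chosen with earlier results of these data known, and the role groups after their values were seen. Values of 1 member of that level are not reported here, though it is counted in the totals.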

Additional observations from a re-analysis of the deposited data

Results flagged for a closer look

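Models outside annotated genes on the strand opposite to a member, which no comparison above used, had more reads over the member's exons than the 3 counts that a count of 0 allows in 5 members. These were Slc25a36 (26 reads in replicate 2 and 10 in replicate 1), Slc25a4 (9 and 16), Slc25a37 (8 and 6), Slc25a44 (9 in replicate 2 and 0 in replicate 1) and Slc25a46 (2 in replicate 2, under the limit, and 4 in replicate 1). Over all members such models held 59 reads in replicate 2 and 43 in replicate 1, in 15 genes. The strand setting of the libraries is not given in the sources used here, and reads of a gene and of its opposite strand cannot be told apart without it.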

How the results depend on the processing

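The summed level of the members, 7741 CPM, became 8125 CPM without mitochondrial genome genes in the total and 5944 CPM with known transcripts only. It was 7170 CPM with spliced models only, a setting chosen after seeing the data, and between 7575 and 7906 CPM in the single libraries. Per kilobase, which is another unit than CPM, the sum was 6626 and included the unstable value of Slc25a23 (384 ± 508). The number of called members was 2 to 4 in the planned settings and 5 of 34 tested with spliced models only. In that last setting Slc25a16 and Slc25a23 were called lower, Slc25a44 higher and Slc25a36 not at all. In the partner lists the number called was 3 of 57 tested, but 6 of 52 with known transcripts and 8 of 55 with spliced models only. The share of all genes called is given for the main setting only, so these other counts have no background beside them. With the reads of every named pseudogene copy added, also chosen after seeing the data, the log2 ratio of Mpc1 was -0.14 and its mean share of the Mpc1 and Mpc2 reads 53.9%, against 50.5%. The causes were not tested. The exon B share of Slc25a3 was between 99.74% and 99.85% in the single libraries and stayed within its spread in the other settings. The counts of called isoforms and exons among members were 0 in each setting. Leaving out a library left no comparison between libraries to test. No paired analysis was possible because the libraries form 1 group. Members of under 10 reads in each library, 12 of those below 20 CPM and some of interest such as Slc25a13, are limited by depth.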

Other observations

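Annotated genes on the opposite strand also had reads over the exons of some members. Rnf167 had 36 reads in replicate 2 and 52 in replicate 1 over Slc25a11, Comtd1 30 and 31 over Vdac2, Rangrf 13 and 24 over Slc25a35, Atp6v1e1 10 and 14 over Slc25a18, and Rundc3a 12 and 0 over Slc25a39. For Slc25a35 itself the counts were 2 in replicate 2 and 1 in replicate 1.

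Among related members, identity of the aligned coding sequences was 72.1% between Vdac2 and Vdac3, 71.3% between Slc25a22 and Slc25a18, 70.7% between Vdac1 and Vdac2, 66.7% between Vdac1 and Vdac3, 65.1% between Slc25a33 and Slc25a36 and 54.5% between Mpc1 and Mpc2.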
